A study of Mus musculus with 14 samples.

Results

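The double knockout cells (DKO1) are mouse hepatocellular carcinoma cells that lack ACLY (ATP-citrate lyase) as well as ACSS2, the short-chain synthetase that activates acetate, and they were compared here with wild type (WT) cells. The comparison rests on 7 of the 14 libraries of the series, 4 WT (line D42V) and 3 DKO1 (line D42C4 Sg2-2), chosen by the genotype given in their labels. The cells came from diethylnitrosamine-induced tumours of mice with floxed Acly alleles, so both groups carried those alleles at the start. WT cells were a bulk population that carried the LentiCRISPR v2 vector with no guide. DKO1 cells had lost Acly exons through adenoviral Cre and been grown from single-cell clonal populations, were then transduced with a guide against the first exon of Acss2, selected with puromycin, and cloned again from single cells. All cells spent 24 hours in DMEM with 10% calf serum before RNA was extracted. DKO1 is 1 clone, so the effects of losing both enzymes and of being that clone cannot be told apart, and the RNA-seq was not independently repeated. Nothing in the labels says that the libraries of a group came from separate cultures, and the p-values measure the spread between these libraries.

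Acetyl-CoA is the activated acetyl unit from which cells build fatty acids and sterols and with which they acetylate histones. It is made in mitochondria and does not cross their inner membrane, so cytosolic and nuclear acetyl-CoA comes mainly from citrate, which ACLY cleaves, and from acetate, which ACSS2 activates. The carnitine acyltransferases can move acetyl groups between compartments as acetylcarnitine. The question of the comparison was what the transcriptome of cells without either enzyme looks like.

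Values are normalized counts, which the authors obtained by dividing counts per gene by DESeq normalization factors. Group values are means ± SD over 4 WT and 3 DKO1 libraries. A log2 fold change is DKO1 minus WT on log2(value + 1), given with its standard error, and it understates the change of genes with low values. Adjusted p-values come from limma with the Benjamini-Hochberg adjustment over 12625 genes with a mean of at least 10 over the 7 libraries. "Rose" and "fell" are used of genes with an adjusted p under 0.05, and the strict limits were an absolute log2 fold change over 1.5 with an adjusted p under 0.01.

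The targeted genes were read first. Acly, on chromosome 11 from 100476352 to 100528000 of GRCm38, had 6052, 5461, 6435 and 6252 normalized counts in the WT libraries and 956, 949 and 931 in the DKO1 libraries. The groups did not overlap, and Acly fell (log2 fold change -2.67 ± 0.09, adjusted p = 6.2e-06). Reads of a transcript that has lost only its floxed exons are still counted, so the residual level says nothing of the protein. Without DKO1 replicate 4 the log2 fold change was -2.66. Acss2, on chromosome 2 from 155518043 to 155562743, had 239, 252, 233 and 224 normalized counts in the WT libraries and 578, 571 and 455 in the DKO1 libraries. All DKO1 libraries lay above all WT libraries, and Acss2 mRNA rose (log2 fold change 1.16 ± 0.12, adjusted p = 0.00025, and 1.28 without DKO1 replicate 4). A guide acts on the coding sequence and need not lower the mRNA, so the Acss2 level neither shows nor contradicts the edit. In the single knockouts, which share the WT controls, Acss2 was 718 ± 56.7 in ACLY KO and 132 ± 4.88 in ACSS2 KO.

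**Figure D1:**
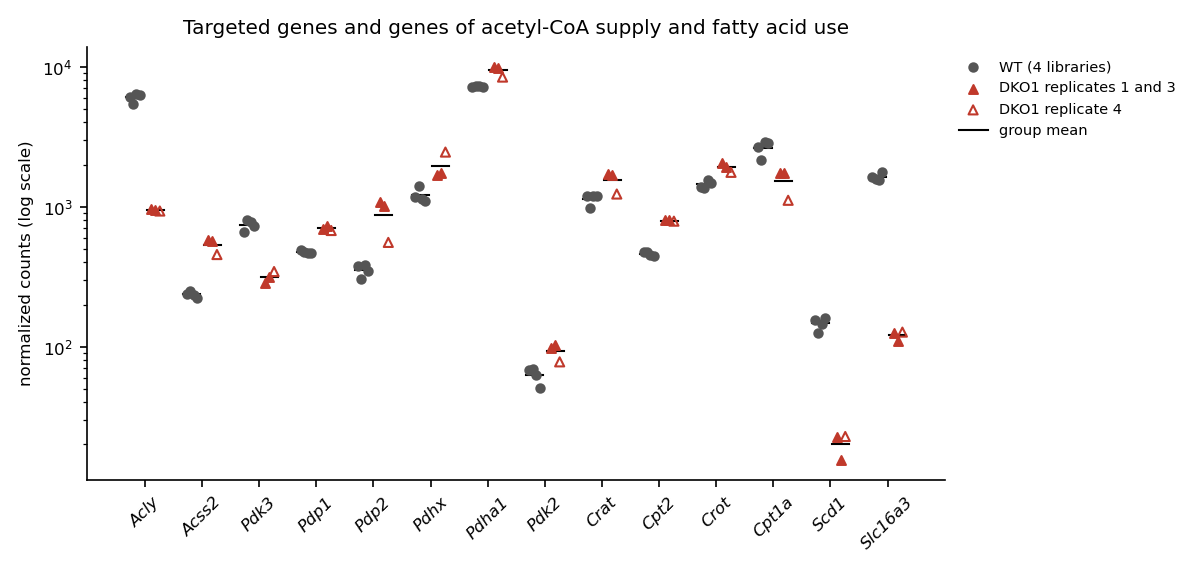
Normalized counts (log axis) of the targeted genes, of called genes of acetyl-CoA supply and the carnitine shuttle, and of Scd1 and Slc16a3, with 1 point per library and bars at the group means. Circles are the 4 WT libraries, filled triangles DKO1 replicates 1 and 3, and open triangles DKO1 replicate 4. Acly, Scd1 and Slc16a3 lie far below WT in all 3 DKO1 libraries.

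DKO1 replicate 4 stood apart. Its deviations from the group mean followed transcript length, with a Spearman correlation over 12540 genes of -0.67, against 0.64 and 0.59 in the other DKO1 libraries. Deviations from a group mean cancel out within the group, so the opposite signs are not independent of each other. WT replicate 2 had the same kind of trend at -0.59. Each result below is therefore also given, or was checked, without DKO1 replicate 4. Totals of normalized counts lay between 23565707 and 26946164, and the implied depth was between 19164067 and 24759116 reads, an estimate since the values are not whole reads. Genes also moved together by chromosome. The 462 chromosome 19 genes had a median log2 fold change of -0.52, and 79.0% of them lay below 0. The medians in the single DKO1 libraries were -0.57, -0.55 and -0.46, against -0.39 to -0.35 in ACLY KO and -0.03 to -0.02 in ACSS2 KO. Of 137 bins of 20 Mb with at least 20 genes, 17 had an absolute median of at least 0.4, among them the distal ends of chromosomes 3, 4 and X at 0.53 to 0.72 and the first 40 Mb of chromosome 8 at -0.49. The number of chromosome copies was not measured, and the sentences that follow give the named genes that lie in the 17 bins. In raised bins lie Abcd3, Acadm, Clca4b, Elovl6, Hadh, Mttp and Nexn of chromosome 3, Isg15 and Pank4 of chromosome 4, Fasn, Havcr1, Sirt7, Slc16a3 and Slc22a5 of chromosome 11, and Acot9, Acsl4, Cldn2, Hdac8, Morc4, Pdha1, Pgk1, Rps4x and S100g of the X chromosome. In lowered bins lie Atp6v0e2 of chromosome 6, Col4a1, Gpat4 and Gsr of chromosome 8, and Acsl5, Acta2, Aldh1a1, Cpt1a, Fads1, Fads2, Fads3, Got1, Ifit2, Ifit3, Incenp, Pgam1, Pola2, Psat1, Rbp4, Scd1, Scd2 and Tm7sf2 of chromosome 19.

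**Figure D2:**
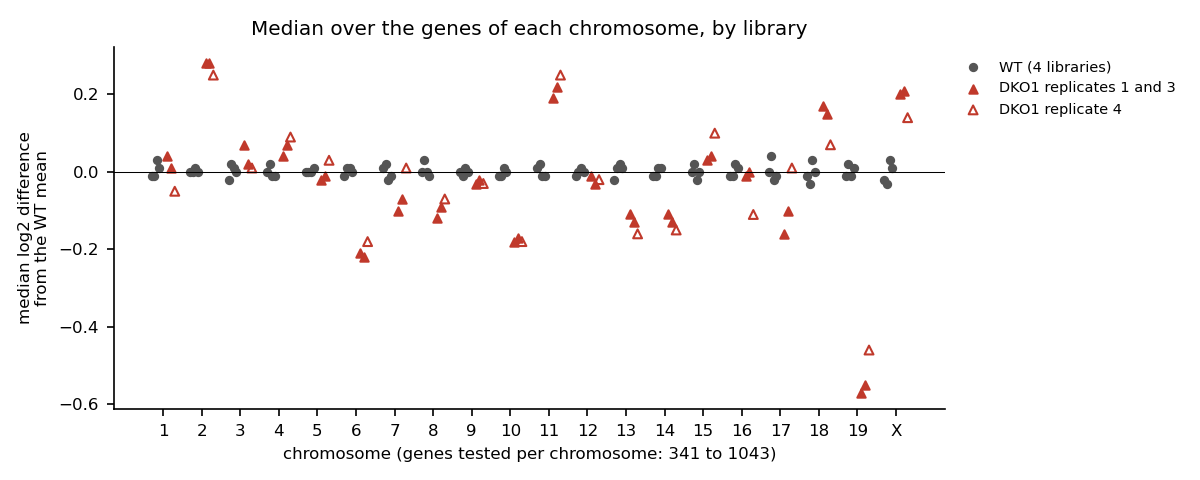
Median log2 difference from the WT mean over the tested genes of each chromosome, with 1 point per library. Circles are WT, filled triangles DKO1 replicates 1 and 3, open triangles DKO1 replicate 4. Chromosome 19 lies at -0.57 to -0.46 in DKO1, while the WT libraries stay within 0.10 of 0 on the chromosomes drawn.

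The cells kept little of a hepatocyte programme in either group. Of 12 hepatocyte markers, 7 were below the filter. The 12 together summed to 1546 to 1881 normalized counts in WT and 611 to 744 in DKO1. Most of the WT sum, and the lower sum in DKO1, came from Foxa2, which fell from 1286 ± 183 to 342 ± 75.9. Hnf4a and Cebpa fell too (-2.90 and -1.44 on the log2 scale). Apob went the other way, at 112 ± 38.7 and 282 ± 163 (adjusted p = 0.135, and 0.0045 without DKO1 replicate 4). Albumin had 31.4 ± 3.89 in WT and 11.3 ± 4.71 in DKO1, while Apoa1, Serpina1a, Cps1 and Asgr1 were at or near 0. Markers of biliary and progenitor cells summed to 35800 to 48430 in WT and 44280 to 70630 in DKO1, and the higher sum came from Spp1, which rose from 14930 ± 1190 to 40611 ± 10300, while Krt7, Krt19 and Sox9 fell (-0.69, -1.17 and -0.60 on the log2 scale). Epithelial markers (Krt8, Krt18 and Cdh1) summed to 48280 to 65330 and 25850 to 44870, where Krt18 and Cdh1 fell (-0.92 and -3.05) and Krt8 was at -0.56 (adjusted p = 0.076, and 0.0016 without DKO1 replicate 4). Fibroblast and stellate markers summed to 2191 to 2503 and 2132 to 2243, with Thy1, Lum and Pdgfra near 0. Within this list Acta2 fell from 1657 ± 133 to 774 ± 91.9, while Col3a1, Col1a2, Pdgfrb and Des rose (2.83, 2.36, 1.37 and 1.93) from low levels. Endothelial markers summed to 18.6 to 28.3 in WT and 42.1 to 53.4 in DKO1. Leukocyte markers summed to 56.9 to 95.2 and 140.9 to 180.9, with Adgre1 at 0. Fetal liver and liver tumour markers, Afp among them, summed to 40.2 to 110.3 and 182.1 to 416.2. Sums of these 3 classes were low in both groups, but each DKO1 sum lay above each WT sum. In bulk RNA fewer cells of a type and less RNA per cell cannot be told apart, and the part of other cell types in the results was not tested.

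Loss of both enzymes went with changes across much of the transcriptome. Under the strict limits 596 genes rose (4.72% of those tested) and 558 fell (4.42%). None of these 1154 genes had overlapping groups, which such limits largely bring about, so this is no separate support for the calls. At an adjusted p under 0.05 alone, 2526 genes rose (20.0%) and 2632 fell (20.8%). The median over all genes was 0.00. Without DKO1 replicate 4, 576 genes rose and 571 fell under the strict limits, and 1039 of the 1154 genes (90.0%) passed them again in the same direction. At an adjusted p under 0.05, 3147 (24.9%) then rose and 3160 (25.0%) fell. No gene called at an adjusted p under 0.05 changed sign, and of the 236 genes named in the text that were called, 234 were called without that library too. Without both libraries that had the length trend, WT replicate 2 and DKO1 replicate 4, the strict counts were 624 and 587.

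**Figure D3:**
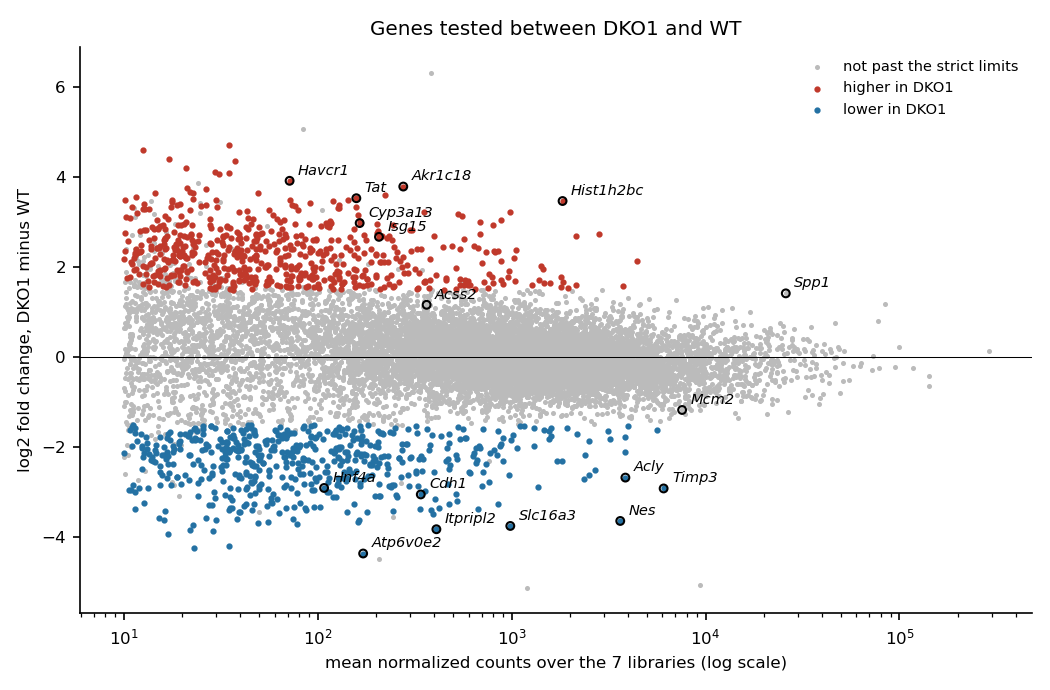
Log2 fold change (DKO1 minus WT) against the mean normalized counts of the 7 libraries (log axis) for 12625 genes. Coloured points passed the strict limits, 596 above and 558 below 0, and circled genes are named in the text.

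Among genes whose mean was 50 or more and that passed the strict limits with and without DKO1 replicate 4, the largest falls included Atp6v0e2, a subunit of the proton pump of lysosomes, with 323, 300.4, 255 and 278 normalized counts in the WT libraries and 15.2, 6.23 and 22.9 in the DKO1 libraries (log2 fold change -4.36 ± 0.37, adjusted p = 0.00013). The groups were far apart, and Atp6v0e2 was also low in the single knockouts, at 18.2 ± 1.86 in ACLY KO and 25.0 ± 4.11 in ACSS2 KO. Its neighbours on chromosome 6 were lower too, with a median of -0.65 over the genes within 5 Mb. The pump as a whole did not fall. Of 18 tested subunit genes 6 rose and 2 fell, Atp6v0e2 among the falls, against 20.0% and 20.8% of all genes. Their median was 0.39, and 0.14 without DKO1 replicate 4. Slc16a3, the lactate exporter MCT4, on chromosome 11 from 120948484 to 120959000, had 1628, 1577, 1562 and 1766 normalized counts in the WT libraries and 125, 110.1 and 127 in the DKO1 libraries (log2 fold change -3.75 ± 0.10, adjusted p = 4.8e-06). Nes, which encodes the intermediate filament nestin, on chromosome 3 from 87971093 to 87980451, had 5836, 5982, 5796 and 6369.8 normalized counts in the WT libraries and 464, 438 and 548 in the DKO1 libraries (log2 fold change -3.64 ± 0.10, adjusted p = 4.8e-06). For both genes the libraries of each group lay close together and the groups far apart. Single-knockout values were 138 ± 11.8 in ACLY KO and 538 ± 33.6 in ACSS2 KO for Slc16a3, and 501 ± 32.9 in ACLY KO and 1288 ± 68.4 in ACSS2 KO for Nes. Also among the 15 largest falls were the actin-binding Nexn (log2 fold change -3.67), Igfbp3, a carrier of insulin-like growth factors (-3.61), neuronal Tubb3 (-3.60), the lipid raft protein Mal (-3.45), P-selectin Selp (-3.44), Itpripl2 (-3.82), Nrip3 (-3.71), Zfp518b (-3.66, and -4.29 without DKO1 replicate 4), Gng10 (-3.48), Slc35g2 (-3.46), Pear1 (-3.41) and Morc4 (-3.40).

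Among the largest rises under the same limits was Havcr1. This gene, a kidney injury marker (KIM-1), had 6.83, 5.37, 12.4 and 15.4 normalized counts in the WT libraries and 149, 147 and 165 in the DKO1 libraries (log2 fold change 3.92 ± 0.34, adjusted p = 0.00014). Akr1c18, a hydroxysteroid dehydrogenase, had 47.5, 51.2, 34.3 and 31.4 normalized counts in the WT libraries and 441, 512 and 818 in the DKO1 libraries (log2 fold change 3.79 ± 0.26, adjusted p = 5.9e-05). Tat, the tyrosine aminotransferase of the liver, had 36.0, 26.4, 25.8 and 23.5 normalized counts in the WT libraries and 384, 336 and 276 in the DKO1 libraries (log2 fold change 3.53 ± 0.19, adjusted p = 2.1e-05). In all 3 genes the lowest DKO1 library was far above the highest WT library. For Tat the single knockouts lay at 28.1 ± 4.54 in ACLY KO and 26.6 ± 6.90 in ACSS2 KO. The difference between DKO1 and the single knockouts was not tested here. Hist1h2bc, a histone H2B gene, had 321, 345, 323 and 307 normalized counts in the WT libraries and 2572, 3072 and 5883 in the DKO1 libraries (log2 fold change 3.47 ± 0.26, adjusted p = 7.77e-05, and 3.11 without DKO1 replicate 4). DKO1 replicate 4 was the highest library for this gene. The others among the 15 were the calcium-binding S100g (3.60, and 2.97 without DKO1 replicate 4), Tdrd9 of germ cell small RNA pathways (3.50), the acute phase protein Orm2 (3.49), Naaladl2 (3.48), the serpin Serpinb9d (3.42), the chemokine Ccl8 (3.38), the splicing factor Nova1 (3.38), the B cell transcription factor Pax5 (3.37), the epoxide hydrolase Ephx2 (3.34), Clca4b (3.32) and the histone gene Hist2h2aa1 (3.32, and 2.68 without it). Akr1c, Serpinb9 and histone genes have near-identical copies, between which reads may be split.

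The list of acetyl-CoA supply genes includes the targeted Acly and Acss2. Of 25 on the list 21 were tested, 7 rose and 2 fell (33.3% and 9.52%, against 20.0% and 20.8% of all genes). Acss2 is among the rises and Acly among the falls. The median was 0.37, against 0.00 over all genes. Acss1, Acss3, Slc13a5 and Acot12 were below the filter. Without DKO1 replicate 4 there were 8 rises and 3 falls and the median was 0.20. Apart from the targeted genes and Crat, which is described with the carnitine shuttle, the called genes were those of pyruvate dehydrogenase, which makes acetyl-CoA from pyruvate in mitochondria, and of its regulators. Pdk3, a kinase that inactivates the complex, had 659, 808, 776 and 722 normalized counts in the WT libraries and 283, 317 and 344 in the DKO1 libraries and fell (log2 fold change -1.23 ± 0.11, adjusted p = 0.00017). The phosphatases that reactivate it rose, Pdp1 with 474 ± 13.5 in WT and 699.7 ± 26.6 in DKO1 (log2 fold change 0.56 ± 0.08, adjusted p = 0.0013) and Pdp2 with 352 ± 37.8 in WT and 877 ± 281 in DKO1 (log2 fold change 1.26 ± 0.23, adjusted p = 0.0042). For Pdp2 DKO1 replicate 4 was the lowest of its group at 556, still above the highest WT library. Pdhx and Pdha1, which encode parts of the complex, rose with log2 fold changes of 0.69 and 0.37, and the kinase Pdk2 rose by 0.56. Pdha1 lies in a stretch of the X chromosome where the median of its neighbours was 0.58. Pdk1 (0.16), Pdk4 (0.07), Dlat (-0.01), Dld (0.28) and Pdhb (0.40) did not pass the test. Nor did the pyruvate carrier genes Mpc1 (0.57, adjusted p = 0.077, and 0.044 without DKO1 replicate 4) and Mpc2 (1.12), the citrate exporter Slc25a1 (0.21), the acetyl-CoA carrier Slc33a1 (0.01) or Acot8 (0.72). Slc16a1, which carries lactate and pyruvate, was at -0.30 (adjusted p = 0.0534, and 0.011 without DKO1 replicate 4).

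In the carnitine shuttle 3 of 10 tested genes rose and 3 fell (30% and 30%, against 20.0% and 20.8% of all genes), with the same numbers without DKO1 replicate 4. Crat, the mitochondrial carnitine acetyltransferase that turns acetyl-CoA into acetylcarnitine, had 1188, 982, 1200 and 1188 normalized counts in the WT libraries and 1724, 1684 and 1232 in the DKO1 libraries. The groups did not overlap but DKO1 replicate 4 lay only just above WT, and the adjusted p was 0.0496 (log2 fold change 0.43), or 0.0028 without that library (0.58). Cpt2, which releases acyl-CoA inside mitochondria, had 478, 478, 451 and 444 normalized counts in the WT libraries and 804, 798 and 788 in the DKO1 libraries and rose (log2 fold change 0.78 ± 0.08, adjusted p = 0.00028). Crot, the peroxisomal octanoyltransferase, rose from 1444 ± 98.6 to 1912 ± 150 (log2 fold change 0.41). Cpt1a, which loads long-chain fatty acids onto carnitine, fell from 2648 ± 349 to 1534 ± 367 (log2 fold change -0.81 ± 0.19, adjusted p = 0.013). It lies on chromosome 19, and the median of its neighbours within 5 Mb was -0.48. Cpt1b (-0.97) and the carrier Slc25a29 (-0.60) also fell, at low levels. Slc25a20, the carnitine-acylcarnitine carrier (0.21), Slc22a5 (0.15), Aldh9a1 (-0.01) and Cpt1c (0.01) did not pass the test. Genes of coenzyme A synthesis and of thioesterases, which split acyl-CoA, had 10 rises and 1 fall among 19 (52.6% and 5.26%, against 20.0% and 20.8% of all genes), with a median of 0.48. Vnn1, a pantetheinase, had 3188, 3052, 3465 and 3327 normalized counts in the WT libraries and 6598, 6657 and 5754 in the DKO1 libraries (log2 fold change 0.96 ± 0.09, adjusted p = 0.00024). The pantothenate kinase Pank4 (0.73), Pank2 (0.44), the mitochondrial CoA carrier Slc25a42 (1.28) and the thioesterases Acot9 (0.91) and Acot2 (0.68) rose, and the CoA diphosphatase Nudt7 fell (-0.81).

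Fatty acid synthesis, which uses cytosolic acetyl-CoA, had 4 rises and 5 falls among 21 tested genes, close to the shares over all genes (19% and 23.8%, against 20.0% and 20.8% of all genes). The median was -0.01, with the same numbers without DKO1 replicate 4. Scd1, the desaturase that makes monounsaturated fatty acids, on chromosome 19 from 44394450 to 44407709, had 156, 126, 145 and 160.4 normalized counts in the WT libraries and 22.4, 15.5 and 22.8 in the DKO1 libraries (log2 fold change -2.81 ± 0.18, adjusted p = 4.29e-05). It was at 19.8 ± 1.5 in ACLY KO and 19.5 ± 2.40 in ACSS2 KO. Fads1, Fads2 and Fads3, desaturases of the same chromosome, fell with log2 fold changes of -0.67, -0.80 and -0.39, while their neighbours had medians of about -0.6. Scd2 had 30150 ± 1860 in WT and 25358 ± 5830 in DKO1 and did not pass the test. Fasn, the fatty acid synthase, had 17220, 10292, 18108 and 18483 normalized counts in the WT libraries and 33151, 30733 and 12846 in the DKO1 libraries. DKO1 replicate 4 lay inside the WT range, and the log2 fold change of 0.59 (adjusted p = 0.23) became 1.03 (adjusted p = 0.0087) without it. Elovl6, which elongates palmitate, rose from 3404 ± 400 to 5498 ± 1250 (log2 fold change 0.67 ± 0.18, adjusted p = 0.02), the malic enzyme gene Me1 rose by 0.47 and the mitochondrial acetyl-CoA carboxylase gene Acacb by 0.78 (adjusted p = 0.0515 without DKO1 replicate 4).

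Sterol synthesis genes rose more often than they fell. All 27 were tested, 11 rose and 3 fell (40.7% and 11.1%, against 20.0% and 20.8% of all genes). The median was 0.36, and 15 rose and 3 fell without DKO1 replicate 4. Acat2, which joins acetyl-CoA units at the head of the pathway, had 3699, 3867, 3826 and 3744 normalized counts in the WT libraries and 7652, 7753 and 8585 in the DKO1 libraries (log2 fold change 1.08 ± 0.08, adjusted p = 8.19e-05). Mvd, the mevalonate diphosphate decarboxylase, had 1424, 1449, 1307 and 1294 normalized counts in the WT libraries and 2981, 3053 and 4247 in the DKO1 libraries (log2 fold change 1.31 ± 0.14, adjusted p = 0.00034). Sqle, the squalene epoxidase, had 6485, 6493, 6592 and 6572 normalized counts in the WT libraries and 11570, 11964 and 11409 in the DKO1 libraries (log2 fold change 0.83 ± 0.08, adjusted p = 0.00016). None of the 3 genes had overlapping groups. Insig1, which holds back the transcription factor SREBP, rose from 3922 ± 97.2 to 7265 ± 408 (log2 fold change 0.89), as did Pmvk (0.92), Nsdhl (0.92), Idi1 (0.49) and Cyp51 (0.39). Single-knockout values for Sqle were 7712 ± 359 in ACLY KO and 4839 ± 90.4 in ACSS2 KO. Among the falls was Tm7sf2 of chromosome 19 (log2 fold change -1.55). Hmgcs1 (-0.19) and Srebf2 (-0.36) had adjusted p-values of 0.15 and 0.2, and 0.24 and 0.46 without DKO1 replicate 4.

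The promoters of Mvd and Insig1 are shown for their CCAAT boxes, which in sterol genes bind NF-Y beside SREBP. Each is the 250 bases before the transcription start in RefSeq (GRCm38.p6), 5′ to 3′ on the gene's strand, with CCAAT, or ATTGG where it is read on the other strand, in capitals. Mvd is at chr8:122443423-122443672, minus strand and Insig1 at chr5:28071162-28071411, plus strand.
Mvd: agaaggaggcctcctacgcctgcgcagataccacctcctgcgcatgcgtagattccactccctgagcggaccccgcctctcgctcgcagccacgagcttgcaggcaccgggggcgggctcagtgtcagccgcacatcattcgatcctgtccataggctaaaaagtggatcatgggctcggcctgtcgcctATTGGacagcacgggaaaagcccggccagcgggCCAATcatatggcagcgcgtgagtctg
Insig1: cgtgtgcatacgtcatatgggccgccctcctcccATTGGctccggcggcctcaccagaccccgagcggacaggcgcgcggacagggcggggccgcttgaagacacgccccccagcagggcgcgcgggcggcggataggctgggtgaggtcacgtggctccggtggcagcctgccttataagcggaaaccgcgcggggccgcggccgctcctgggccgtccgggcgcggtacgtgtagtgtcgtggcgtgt
CCAAT on either strand occurred in 17 of the 19 sterol list genes with a promoter (89.5%) and in 41.0% of the 9926 tested genes with one. The sterol regulatory element TCACNCCAC, searched on both strands, was in 1 of the 19 (Hmgcs1) and in 1.24% of all.

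Genes that burn fatty acids rose in part. In mitochondrial oxidation and ketone metabolism 8 of 22 rose and 1 fell, or 36.4% and 4.55%, against 20.0% and 20.8% of all genes (median 0.29, and 0.16 without DKO1 replicate 4). Acadm, the medium-chain acyl-CoA dehydrogenase, had 1536, 1903, 1489.6 and 1379 normalized counts in the WT libraries and 3093, 3230.3 and 4088 in the DKO1 libraries (log2 fold change 1.14 ± 0.15, adjusted p = 0.000845). Acadvl, its very long-chain counterpart, rose from 1639 ± 168 to 2923 ± 632 (log2 fold change 0.82), Hadh rose by 0.71 and Acaa2 by 0.76. Hadh lies in the distal stretch of chromosome 3. In peroxisomes, which shorten very long and branched chains and release acetyl units, 11 of 23 rose and 1 fell, or 47.8% and 4.35%, against 20.0% and 20.8% of all genes (median 0.47, and 0.46 without DKO1 replicate 4). Phyh, which starts the breakdown of phytanic acid, had 418, 463, 375 and 400 normalized counts in the WT libraries and 1091, 1159.5 and 1376 in the DKO1 libraries (log2 fold change 1.54 ± 0.12, adjusted p = 8.44e-05). The acyl-CoA oxidase Acox2 (1.35), the transporter Abcd3 (0.91), Amacr (0.98), Hacl1 (0.93) and Pex13 (0.62) rose. Hsd17b4 (0.24) and catalase (0.35) had adjusted p-values of 0.057 and 0.08.

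Uptake, activation and storage genes split both ways. Of 12 tested for uptake and activation 5 rose and 4 fell (41.7% and 33.3%, against 20.0% and 20.8% of all genes). Acsf2 and Acsf3, acyl-CoA synthetases of mitochondria, fell from 184 ± 24.7 to 43.7 ± 3.26 (log2 fold change -2.04 ± 0.15, adjusted p = 6.52e-05) and from 299 ± 38.9 to 92.3 ± 3.85 (log2 fold change -1.68 ± 0.13, adjusted p = 9.09e-05). For Acsf3 the single knockouts were 376 ± 9.76 in ACLY KO and 370.3 ± 36.5 in ACSS2 KO. The fatty acid carrier Fabp5 fell (log2 fold change -1.64), and the synthetases Acsl1 (0.99), Acsl3 (0.57) and Acsl4 (1.02) rose, Acsl4 in the raised stretch of the X chromosome. Acsl5, on chromosome 19, fell (-0.41). Of 21 genes of triglyceride storage 7 rose and 6 fell (33.3% and 28.6%, against 20.0% and 20.8% of all genes). Plin4, a lipid droplet coat protein, had 96.4, 109, 144 and 118 normalized counts in the WT libraries and 742, 777 and 412 in the DKO1 libraries (log2 fold change 2.41 ± 0.25, adjusted p = 0.00029). Mttp, which loads lipid onto lipoproteins, had 786, 878, 775 and 786 normalized counts in the WT libraries and 2144, 2151 and 2221 in the DKO1 libraries (log2 fold change 1.43 ± 0.08, adjusted p = 2.74e-05), and its neighbours on distal chromosome 3 had a median of 0.72. Lpin1, a phosphatidate phosphatase, rose by 1.36, while the droplet protein gene Plin2 (-0.44) and the acyltransferase genes Gpat4 (-0.58) and Agpat1 (-0.49) fell. Of 14 targets of PPARalpha, the fatty acid-sensing receptor of liver, 6 rose and 4 fell (42.9% and 28.6%, against 20.0% and 20.8% of all genes). Angptl4, a lipase inhibitor, had 397, 437, 375 and 377 normalized counts in the WT libraries and 90.1, 83.5 and 77.4 in the DKO1 libraries (log2 fold change -2.23 ± 0.11, adjusted p = 1.48e-05). Ucp2 fell as well (-2.29), while Ppargc1a (1.16), the receptor gene Ppara (1.12) and Fgf21 (1.69) rose. Without DKO1 replicate 4 the adjusted p of Fgf21 was 0.0665.

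**Figure D4:**
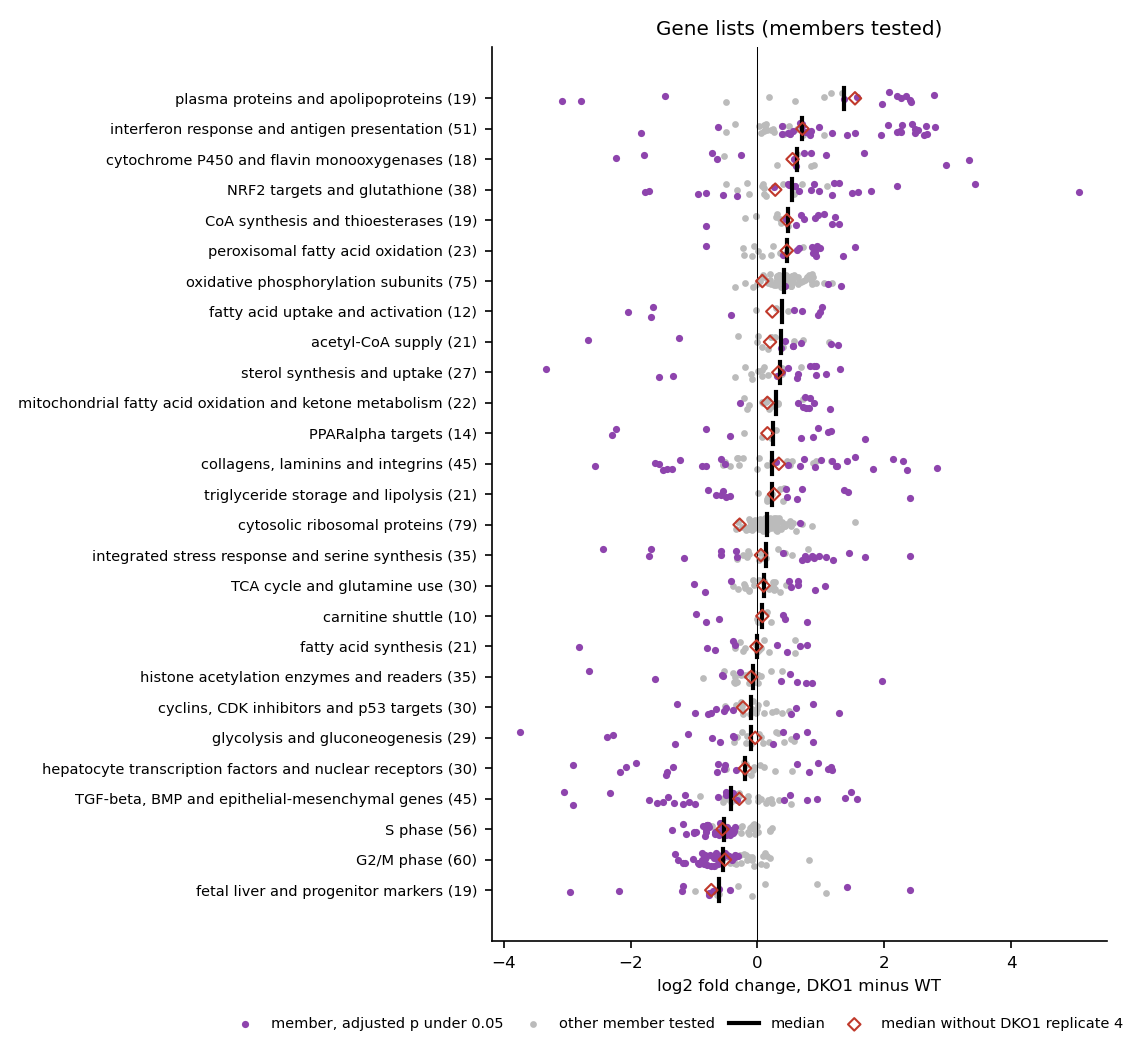
Log2 fold change of each tested member of 27 gene lists (number tested in brackets), with members past an adjusted p of 0.05 in purple. Black bars are medians and open diamonds medians without DKO1 replicate 4. Medians run from -0.60 for progenitor markers to 1.36 for plasma proteins, and those of ribosomal and oxidative phosphorylation genes move most when DKO1 replicate 4 is left out.

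In glycolysis and gluconeogenesis 9 of 29 tested genes fell and 5 rose (31% and 17.2%, against 20.8% and 20.0% of all genes), or 12 and 8 without DKO1 replicate 4. The median of -0.11 was -0.04 without that library and lay between -0.20 and 0.04 over the alternatives, so the list had no stable sign. Beside Slc16a3, the glucose transporter gene Slc2a1 had 6940.4, 6723, 6203 and 6797 normalized counts in the WT libraries and 2573, 2679.7 and 2848 in the DKO1 libraries (log2 fold change -1.30 ± 0.09, adjusted p = 4.5e-05). Hk2, the hexokinase of many tumours, had 3302, 2962, 3352 and 3459.6 normalized counts in the WT libraries and 1661, 1621 and 1334 in the DKO1 libraries (log2 fold change -1.09 ± 0.11, adjusted p = 0.000265). Each DKO1 library was below each WT library for both. Aldoc (-2.38) and Eno2 (-2.28), which were low in WT too, fell, and so did Pgam1 of chromosome 19 (-0.72), Ldha (-0.60), Pfkl (-0.39) and Gpi1 (-0.38). Gapdh (-0.24), Pkm (-0.19), Aldoa (-0.16) and Pgk1 (0.42) did not pass the test, but without DKO1 replicate 4 Gapdh and Aldoa fell (-0.34 and -0.28, adjusted p = 0.016 and 0.0451). In the tricarboxylic acid cycle and glutamine use 6 of 30 rose and 3 fell (20% and 10%, against 20.0% and 20.8% of all genes), and 7 rose and 7 fell without DKO1 replicate 4. The share of rises is that of all genes. Cs, the citrate synthase gene, whose product ACLY uses, fell from 9415 ± 631 to 7048 ± 942 (log2 fold change -0.42 ± 0.12, adjusted p = 0.0245). Glul, which makes glutamine, had 1392, 1457, 1399.9 and 1399.8 normalized counts in the WT libraries and 730.2, 739 and 656 in the DKO1 libraries (log2 fold change -1.0 ± 0.08, adjusted p = 0.00012), and Got1 of chromosome 19 fell (log2 fold change -0.83). Mdh1 (0.90), Idh1 (0.64), Idh3b (0.64) and Gpt2 (0.49) rose.

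For 2 large lists of short transcripts the values depended on DKO1 replicate 4. Of 75 subunits of oxidative phosphorylation 3 rose and 0 fell, with a median of 0.42 that became 0.08 without it, when 5 rose and 3 fell. Against the WT mean the median of this list was -0.03 in DKO1 replicate 1, 0.17 in replicate 3 and 1.31 in replicate 4. Of 79 cytosolic ribosomal protein genes 1 rose (Rps4x, log2 fold change 0.66, in the raised stretch of the X chromosome), and the median went from 0.15 to -0.28. Both shares were below the background.

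Stress-response genes changed unevenly. In the integrated stress response and serine synthesis list 13 of 35 rose and 8 fell (37.1% and 22.9%, against 20.0% and 20.8% of all genes). The median of 0.14 was 0.05 without DKO1 replicate 4 and 0.36 without chromosome 19 genes. Nupr1, a stress-induced chromatin protein, had 189.5, 212, 164 and 190.3 normalized counts in the WT libraries and 889.8, 877 and 1290.5 in the DKO1 libraries (log2 fold change 2.41 ± 0.16, adjusted p = 5.4e-05). Trib3 and Chac1, targets of ATF4 and CHOP, rose from 712 ± 61.7 to 1949 ± 423 (log2 fold change 1.44 ± 0.15, adjusted p = 0.00033) and from 849 ± 39.0 to 1668 ± 50.4 (log2 fold change 0.97 ± 0.08, adjusted p = 0.00012). Asns (0.86), Psph (1.19), Ddit3 (0.70) and Phgdh (0.76) rose too. Shmt1, the cytosolic serine hydroxymethyltransferase, fell from 152 ± 14.8 to 27.2 ± 3.70 (log2 fold change -2.44 ± 0.15, adjusted p = 3.68e-05), and Stc2 (-1.71), Aldh1l2 (-1.68) and Psat1 of chromosome 19 (-0.57) fell as well. Single-knockout values for Stc2 were 61.5 ± 6.32 in ACLY KO and 749.5 ± 97.4 in ACSS2 KO, on either side of WT. Atf4 itself was at 0.44 (adjusted p = 0.064).

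Targets of NRF2, the regulator of antioxidant genes, rose in 17 of 38 cases and fell in 6, or 44.7% and 15.8%, against 20.0% and 20.8% of all genes (median 0.54, and 0.28 with 17 and 7 without DKO1 replicate 4). Ephx1, the microsomal epoxide hydrolase, had 842, 902, 928 and 851 normalized counts in the WT libraries and 3118, 3228 and 2792 in the DKO1 libraries (log2 fold change 1.79 ± 0.09, adjusted p = 1.71e-05). Srxn1, the sulfiredoxin, had 1688, 1706, 1719 and 1615 normalized counts in the WT libraries and 4164, 4048 and 4122 in the DKO1 libraries (log2 fold change 1.29 ± 0.07, adjusted p = 2.69e-05). Nqo1 (2.21), the heme oxygenase gene Hmox1 (0.97), Gclc (0.84), the glutathione transferase genes Gstm1 (0.66) and Gstm3 (1.58) and the ferritin light chain gene Ftl1 (1.18) also rose. Gsta1 was at 0, 20.8, 27.9 and 0 in WT and 128, 129 and 282 in DKO1. In the other direction the glutathione reductase gene Gsr fell from 6780.2 ± 406 to 3554 ± 363 (log2 fold change -0.94), where its neighbours on proximal chromosome 8 had a median of -0.48, and Cbr1 (-1.71) and G6pdx (-0.81) fell. Only 18 of 102 cytochrome P450 and flavin monooxygenase genes passed the filter, which genes low in WT pass only if they are high in DKO1. Of the 18 genes, 8 rose and 5 fell (44.4% and 27.8%, against 20.0% and 20.8% of all genes). Such shares are no separate support for a rise. Cyp3a13 had 38.0, 44.0, 36.8 and 44.4 normalized counts in the WT libraries and 297, 305 and 388 in the DKO1 libraries (log2 fold change 2.98 ± 0.15, adjusted p = 1.61e-05), and Cyp4b1 rose from 939.6 ± 107 to 3026 ± 613 (log2 fold change 1.68). Cyp2s1 fell from 320.4 ± 33.7 to 67.6 ± 5.11 (log2 fold change -2.23).

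The interferon response was the list with the largest share of rises among those over 25 genes. Interferon-induced genes are switched on by a complex that holds STAT2 and IRF9 and binds the interferon-stimulated response element. Of 51 tested genes of this response and of antigen presentation 30 rose (58.8%, against 20.0% of all genes) and 2 fell, with a median of 0.69. Without DKO1 replicate 4, 36 rose, 3 fell and the median was 0.71. The promoters of 3 of them, each the 250 bases before the start in RefSeq (GRCm38.p6), 5′ to 3′ on the gene's strand, are shown with the element GAAA, any 2 bases, GAAA, or TTTC, any 2 bases, TTTC where it is read on the other strand, in capitals. Overlapping matches run together. Isg15 is at chr4:156200819-156201068, minus strand, Oas1a at chr5:120907526-120907775, minus strand and Rsad2 at chr12:26456453-26456702, minus strand.
Isg15: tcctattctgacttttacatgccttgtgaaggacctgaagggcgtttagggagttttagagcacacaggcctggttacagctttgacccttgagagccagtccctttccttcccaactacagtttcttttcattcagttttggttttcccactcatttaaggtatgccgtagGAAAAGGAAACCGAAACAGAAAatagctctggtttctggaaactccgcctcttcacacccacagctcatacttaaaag
Oas1a: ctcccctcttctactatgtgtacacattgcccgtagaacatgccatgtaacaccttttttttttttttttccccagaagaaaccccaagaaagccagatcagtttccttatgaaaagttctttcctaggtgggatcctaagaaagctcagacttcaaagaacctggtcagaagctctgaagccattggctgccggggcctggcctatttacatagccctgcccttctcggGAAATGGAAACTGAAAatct
Rsad2: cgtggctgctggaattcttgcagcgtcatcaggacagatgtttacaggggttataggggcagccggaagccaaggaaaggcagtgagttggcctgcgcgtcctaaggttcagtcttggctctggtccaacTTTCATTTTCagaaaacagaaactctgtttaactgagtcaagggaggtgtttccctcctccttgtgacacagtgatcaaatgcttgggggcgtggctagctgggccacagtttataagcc
The element, searched on both strands, was in 13 of the 43 list genes with a promoter (30.2%) and in 302 of the 9926 tested genes with one (3.04%). Of the 13, 11 rose, and of all 43, with or without the element, 25 rose. Whether the element goes with a rise was not tested.

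Isg15, a ubiquitin-like protein, had 60.8, 61.9, 65.4 and 51.8 normalized counts in the WT libraries and 266, 393 and 551 in the DKO1 libraries (log2 fold change 2.67 ± 0.24, adjusted p = 0.000155). Oas1a, which senses double-stranded RNA, had 57.1, 61.3, 51.6 and 56.2 normalized counts in the WT libraries and 341, 413 and 451 in the DKO1 libraries (log2 fold change 2.80 ± 0.13, adjusted p = 1.48e-05). The antiviral enzyme gene Rsad2 had 20.3, 11.3, 13.4 and 7.03 normalized counts in the WT libraries and 70.4, 96.1 and 81.2 in the DKO1 libraries (log2 fold change 2.65 ± 0.33, adjusted p = 0.00071). No DKO1 library overlapped WT for these genes. Usp18, which removes ISG15 and limits signalling, rose from 31.1 ± 4.54 to 171 ± 14.3 (log2 fold change 2.43 ± 0.16, adjusted p = 4.96e-05), Ifit3 from 375 ± 29.3 to 845 ± 57.5 (log2 fold change 1.17 ± 0.10, adjusted p = 0.00013), against a chromosome 19 median of -0.52, and Irf7 by 2.25. The signalling genes Stat2 (0.77) and Irf9 (0.82) rose. Lgals3bp rose from 402 ± 33.3 to 1879 ± 402 (log2 fold change 2.20). In antigen presentation B2m, the light chain of MHC class I, rose from 9027 ± 374 to 14686 ± 1110 (log2 fold change 0.70 ± 0.09, adjusted p = 0.00085), and H2-K1 (0.13) and H2-D1 (0.11) did not pass the test. Ifitm3 was an exception with 81.0, 95.9, 77.4 and 82.0 normalized counts in the WT libraries and 23.4, 23.1 and 22 in the DKO1 libraries (log2 fold change -1.83 ± 0.14, adjusted p = 8.78e-05), and Ifit2 fell (log2 fold change -0.62). For Isg15 the single knockouts were 175 ± 48.1 in ACLY KO and 90.1 ± 9.83 in ACSS2 KO, and for Oas1a 258 ± 81.8 in ACLY KO and 63.2 ± 2.30 in ACSS2 KO. The interferon genes themselves are not on the list and were not examined.

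**Figure D5:**
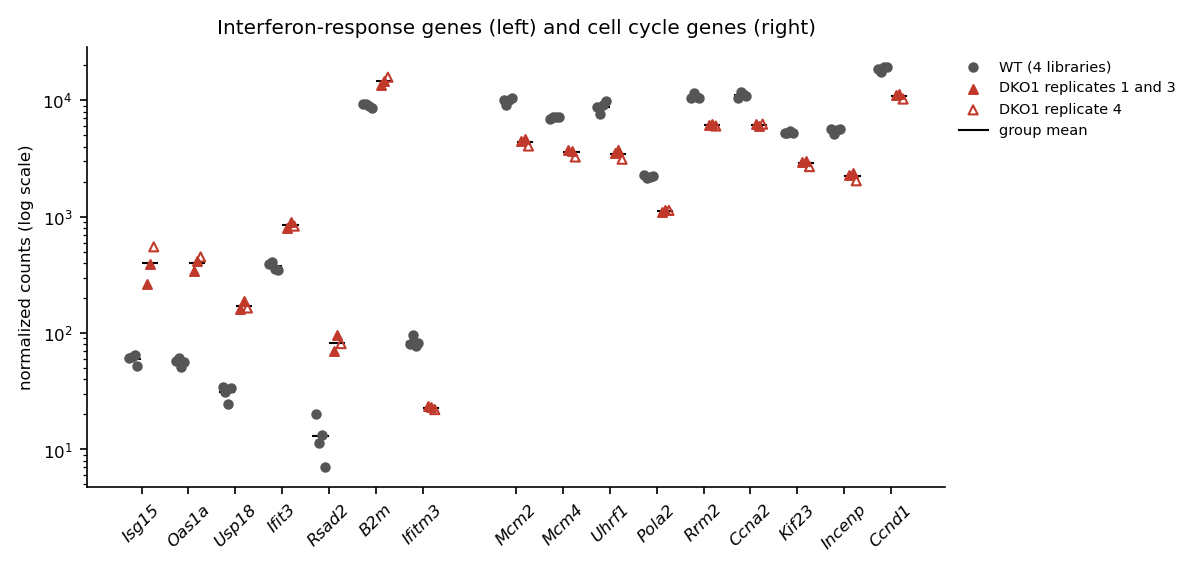
Normalized counts (log axis) of 7 interferon-response genes and 9 cell cycle genes, with 1 point per library and bars at the group means. Circles are WT, filled triangles DKO1 replicates 1 and 3, open triangles DKO1 replicate 4. The first 6 interferon genes lie above WT in every DKO1 library and Ifitm3 below, and all 9 cell cycle genes lie below WT in every DKO1 library.

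Cell cycle genes were lower in DKO1. All 56 S phase genes were tested, 35 fell (62.5%, against 20.8% of all genes) and 0 rose, with a median of -0.52. Without DKO1 replicate 4, 44 fell, 1 rose and the median was -0.55. Mcm2, of the replicative helicase, had 10044, 9073, 10142 and 10510 normalized counts in the WT libraries and 4498, 4696 and 4052 in the DKO1 libraries (log2 fold change -1.17 ± 0.10, adjusted p = 0.00011). Uhrf1, which keeps DNA methylation at replication, had 8750.5, 7690.4, 9054 and 9782 normalized counts in the WT libraries and 3528, 3719 and 3119 in the DKO1 libraries (log2 fold change -1.35 ± 0.11, adjusted p = 0.00012). The helicase genes Mcm4 (-1.0) and Mcm7 (-0.80), the origin factor Orc1 (-1.0), the polymerase subunit Pola2 of chromosome 19 (-0.98) and the ribonucleotide reductase genes Rrm2 (-0.81) and Rrm1 (-0.49) fell. Pcna had 20095 ± 3070 in WT and 19626 ± 4820 in DKO1 and did not pass the test. Of 60 G2/M genes 34 fell (56.7%) and 0 rose (median -0.54), and 38 fell and 1 rose without DKO1 replicate 4. Ccna2, cyclin A2, had 10493, 11758, 11337 and 10809 normalized counts in the WT libraries and 6277, 6013 and 6245 in the DKO1 libraries (log2 fold change -0.84 ± 0.08, adjusted p = 0.00024). Kif23 (-0.88), Ttk (-0.83), Ncapd2 (-1.14), Smc4 (-0.84), Melk (-0.69), Top2a (-0.92) and Incenp of chromosome 19 (-1.31) fell. Mki67, which encodes Ki-67, was at -0.77 (adjusted p = 0.073). With the median of each gene's 20 Mb bin subtracted the list medians were -0.51 and -0.51. Among 30 cyclin, inhibitor and p53 target genes 4 rose and 8 fell (13.3% and 26.7%, against 20.0% and 20.8% of all genes), or 5 and 11 without DKO1 replicate 4. Ccnd1 and Ccnd2, the D cyclins of G1, fell from 18726 ± 829 to 10952 ± 609 (log2 fold change -0.77 ± 0.09, adjusted p = 0.00046) and from 10424 ± 593 to 5253 ± 464 (log2 fold change -0.99 ± 0.10, adjusted p = 0.00025). Mycn (-1.26) and Cdk2 (-0.52) fell, and the inhibitor gene Cdkn2b (0.88) and Trp53inp1 (1.28) rose.

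Of 30 hepatocyte transcription factor and nuclear receptor genes tested 12 fell and 6 rose (40% and 20%, against 20.8% and 20.0% of all genes), with the same numbers without DKO1 replicate 4 and a median of -0.19. Hnf4a, the nuclear receptor central to hepatocytes, had 154, 152, 193 and 189 normalized counts in the WT libraries and 25.6, 16.4 and 25.4 in the DKO1 libraries (log2 fold change -2.90 ± 0.20, adjusted p = 5.55e-05). Foxa2, a pioneer factor, had 1227, 1547, 1120.5 and 1249.8 normalized counts in the WT libraries and 299, 297 and 429.5 in the DKO1 libraries (log2 fold change -1.92 ± 0.17, adjusted p = 0.00015). Gata6 (-1.42), Prox1 (-2.08), Rora (-1.34) and Cebpa (-1.44) fell, and Foxa1 rose from 672 ± 47.2 to 1179 ± 126 (log2 fold change 0.81). For Foxa2 the single knockouts were 349 ± 25.0 in ACLY KO and 1246 ± 72.1 in ACSS2 KO. Only 19 of 58 plasma protein genes passed the filter. It is on the mean over both groups, so a gene low in WT passes it only if it is high in DKO1. The shares of a list cut in this way are no separate support for a rise. Over the alternatives the list median ran from 0.73 to 1.56. Of the 19 genes, 10 rose and 3 fell (52.6% and 15.8%, against 20.0% and 20.8% of all genes). The ones that rose included the acute phase and complement genes C3, with 309, 234, 271 and 205 normalized counts in the WT libraries and 1768, 1648 and 724 in the DKO1 libraries (log2 fold change 2.34 ± 0.32, adjusted p = 0.001), C4b (2.42), Lcn2 (2.27), Hp (2.77) and Itih4 (1.56), and Afp (2.41), a fetal liver protein. Alb fell (-1.46), as did Itih2, with 335 ± 35 in WT and 39.2 ± 7.17 in DKO1 (log2 fold change -3.08 ± 0.16, adjusted p = 2.1e-05), and the retinol carrier Rbp4 of chromosome 19 (-2.79). Apob, which fills lipoproteins, had 122, 55.4, 138 and 134 normalized counts in the WT libraries and 387, 366 and 94.3 in the DKO1 libraries, with adjusted p = 0.135 and, without DKO1 replicate 4, 0.0045. Of 19 fetal and progenitor markers 9 fell and 2 rose (47.4% and 10.5%, against 20.8% and 20.0% of all genes), or 12 and 2 without DKO1 replicate 4. Spp1, osteopontin, had 14941, 16464, 14756 and 13561 normalized counts in the WT libraries and 33081, 36398 and 52355 in the DKO1 libraries (log2 fold change 1.42 ± 0.17, adjusted p = 0.00055). Krt19 (-1.17), Krt7 (-0.69), Hmga2 (-1.19), Igf2bp1 (-0.76) and Sox9 (-0.60) fell.

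Adhesion and matrix genes changed in both directions. Cdh1, E-cadherin, on chromosome 8 from 106603350 to 106670247, had 559, 550.2, 529 and 547 normalized counts in the WT libraries and 64.4, 63.5 and 67.9 in the DKO1 libraries (log2 fold change -3.05 ± 0.09, adjusted p = 4.8e-06). Timp3, an inhibitor of matrix proteases, had 9449, 8210.3, 10547 and 10526 normalized counts in the WT libraries and 1201, 1238 and 1399 in the DKO1 libraries (log2 fold change -2.92 ± 0.12, adjusted p = 9.7e-06). Both were clear of WT in each DKO1 library. Of 45 tested genes of TGF-beta and BMP signalling and epithelial-mesenchymal change 19 fell and 7 rose, or 42.2% and 15.6%, against 20.8% and 20.0% of all genes (median -0.42, and -0.29 without DKO1 replicate 4). Twist1 (-2.33), Inhba (-1.71), Inhbb (-1.49), Tgfb1 (-1.14) and the target genes Id1 (-1.18) and Id3 (-1.32) fell, and Bmp6 (0.94), Snai2 (1.38) and Mmp2 (1.56) rose. Vim had 92914 ± 12200 in WT and 108480 ± 15400 in DKO1 and did not pass the test. Of 45 collagens, laminins and integrins 16 rose and 11 fell (35.6% and 24.4%, against 20.0% and 20.8% of all genes), or 20 and 11 without DKO1 replicate 4. Col3a1 had 87.4, 85.9, 73.4 and 75.7 normalized counts in the WT libraries and 711, 606 and 445 in the DKO1 libraries (log2 fold change 2.83 ± 0.17, adjusted p = 3.35e-05), and Col6a3 rose from 29.9 ± 3.72 to 149.5 ± 9.74 (log2 fold change 2.29). The basement membrane genes Lamb1 (-1.62), Nid2 (-2.56) and Col4a1 (-1.22) fell, Col4a1 in the lowered stretch of proximal chromosome 8.

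The histone acetylation list holds enzymes that add acetyl groups, with acetyl-CoA as the donor, enzymes that remove them, and readers of acetylated histones. Of 35 tested genes 6 rose and 5 fell, both shares below those over all genes (17.1% and 14.3%, against 20.0% and 20.8% of all genes). The median was -0.07, and 7 rose and 7 fell without DKO1 replicate 4. Sirt1, an NAD-dependent deacetylase, had 404, 369, 479 and 433 normalized counts in the WT libraries and 56.7, 62.7 and 79.1 in the DKO1 libraries (log2 fold change -2.66 ± 0.15, adjusted p = 2.49e-05), and was at 100 ± 3.91 in ACLY KO and 463 ± 8.85 in ACSS2 KO. Sirt5 fell too (-1.61). Hdac9 had 43.6, 26.4, 36.1 and 28.2 normalized counts in the WT libraries and 148, 168 and 92.5 in the DKO1 libraries and rose (log2 fold change 1.97 ± 0.27, adjusted p = 0.00098), with Hdac11 (0.86), Hdac8 (0.51) and Sirt7 (0.77). The bromodomain gene Brd2 rose (log2 fold change 0.37). Hat1 was at -0.04 and did not pass the test.

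Genes of the Y chromosome separated the lines. Ddx3y had 1499.8, 1612, 1679.5 and 1740.3 normalized counts in the WT libraries and 4990, 4839 and 4060.1 in the DKO1 libraries (log2 fold change 1.5 ± 0.11, adjusted p = 6.08e-05), and Eif2s3y (1.55), Uty (1.62) and Kdm5d (1.09) rose as well. In the single knockouts Ddx3y was 356 ± 63.1 in ACLY KO and 322 ± 14.8 in ACSS2 KO, below every WT library. The DKO1 cells were derived from ACLY KO cells, and what share of cells in each line expressed these genes cannot be read from bulk RNA.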

How the data were processed

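Poly(A) libraries (NEBNext Ultra Directional) of 4 WT and 3 DKO1 samples were sequenced by the authors as 75-base single-end reads and mapped with STAR to GRCm38 (mm10). In the deposited signal values, each count was scaled by the authors with DESeq normalization factors (DESeq2 1.0.1 in the submitters' processing notes). They are not whole reads, so no counting interval was computed and a count test was not used. The read counter and its annotation are not given in the sources used here, nor is whether counting used strand.

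Libraries were grouped by the genotype in their labels. Genes with a mean of at least 10 were tested with limma 3.58.1 in R 4.3.3, with an intensity trend, on log2(value + 1), over these 7 libraries with no covariate. On simulated data the procedure was tested as well. Gene lists are described by counts and medians, beside all genes. Named are Acly and Acss2, the 15 largest rises and falls among genes whose mean was 50 or more and that passed the strict limits with and without DKO1 replicate 4 and had no overlap, and from each list the members with the smallest adjusted p or the highest mean, and all of the acetyl-CoA supply, carnitine and Y chromosome lists. Other genes were chosen after their values were seen. The comparison, the lists and the rule were chosen with earlier results of these data known. Gene positions and promoters are from RefSeq, and transcript lengths from GENCODE M21. Of 24972 symbols 26 appear as dates and were not matched. A few genes are not reported here. Alternatives were other added constants, filters, normalizations, a transcript length correction, library weights, a fit of all 14 libraries, a replicate block, other limits and each library left out. The fit without both libraries with a length trend, and list medians by region, were added after the data were seen.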

Additional observations from a re-analysis of the deposited data

Results flagged for a closer look

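In the 4 WT libraries 1 library stood far from the other 3 for 22 of the 273 genes named, where chance gives about 1 in 20 groups. In 21 of the 22 it was WT replicate 2, which has the transcript length trend. WT replicate 2 was the highest library for Cdkn2b (583.9 normalized counts), Dld (3420), Glul (1457), Hsd17b4 (2218), Id1 (1363), Idh3b (4031), Igfbp3 (311.8), Mttp (877.7), Pgam1 (26400), Pgk1 (27990), Sirt5 (107.3) and Slc16a1 (4873). It was the lowest for Crat (982.3), Fads2 (5021), Fads3 (12710), Fasn (10290), G6pdx (817.6), Gm10052 (7198), Mal (269.7), Ncapd2 (7856) and Pear1 (309.6). For Fasn the other WT libraries lay between 17220 and 18480, and for Crat between 1188 and 1200. WT replicate 1 was the lowest for Inhba, at 596.6 normalized counts. The part of the length trend in these values was not tested.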

How the results depend on the processing

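Of the 236 named genes that were called, 193 stayed called in the same direction under every alternative that tested them and 208 with each library left out in turn, and no named gene reversed. Acly and Acss2 kept their direction and call throughout. Leaving out each library in turn gave 466 to 576 rises and 507 to 571 falls under the strict limits, and 1945 to 3147 and 2013 to 3160 at an adjusted p under 0.05. The strict counts depended on the filter and the limits. They were 357 and 358 with at least 10 in every library, and 299 and 340 with a mean of at least 50. With an absolute log2 fold change over 1 they were 918 and 839, and over 2, 369 and 367. Fewer genes are tested under the stricter filters. Without both libraries that had a length trend 4145 genes rose and 4339 fell at an adjusted p under 0.05. With library weights the numbers were 5025 and 4983, but the weights stopped before convergence, with nearly all weight on DKO1 replicate 3. The cause was not tested. With the replicate block 292 genes rose under the strict limits (386 fell), and 1644 rose and 1624 fell at an adjusted p under 0.05, with 37 named genes no longer called. Whether equal numbers pair the libraries cannot be told from these values, as the deviations follow transcript length. The correlations of same-numbered deviations were 0.02, 0.38 and -0.45. Of the DKO1 libraries only replicate 3 correlated best with its own number. DKO1 replicate 4 correlated best with WT replicate 2 (0.62), which shares its length trend, and DKO1 replicate 1 with WT replicate 4 (0.39). List medians kept their sign under all alternatives for S phase (-0.55 to -0.45), G2/M (-0.56 to -0.45) and the interferon response (0.64 to 0.76), while those of ribosomal proteins ran from -0.28 to 0.45. Values that are not whole reads limit what can be said of genes near the filter.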

Other observations

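Some gene families that had no list of their own moved together. They were picked after their values were seen, so no test was made of them. The counts below stand beside 20.0% of all genes that rose and 20.8% that fell. Other families looked at did not move together. Of 21 keratins 3 rose and 3 fell, and of 12 S100 proteins 2 and 2. Of 19 tubulins 2 rose and 5 fell, and of 23 semaphorins and plexins 5 and 6. Of 19 tested clustered histone genes, taken by their symbols, 14 rose and 0 fell (median 2.26, and 2.38 with 12 rises without DKO1 replicate 4). The libraries were selected for poly(A), which most histone mRNA lacks. Whether these transcripts are tied to replication was not tested. Hist1h1c, a linker histone gene, rose from 199.7 ± 24.6 to 1605 ± 594 (log2 fold change 2.94) and Hist1h4i from 45.4 ± 18.8 to 241 ± 198 (log2 fold change 2.15, and 1.52 without DKO1 replicate 4). Of 13 clade B serpin genes, inhibitors of granzymes and other proteases, 11 rose and 0 fell (median 1.88), led in level by Serpinb9 with 1698 ± 96.2 in WT and 3369.5 ± 250 in DKO1 (log2 fold change 0.99 ± 0.09, adjusted p = 0.00019). Among 12 aldo-keto reductase genes 7 rose and 1 fell. Of 16 chemokine genes 6 rose and 3 fell, the falls near the share over all genes. Ccl2, which draws monocytes, rose from 4348 ± 904 to 9413 ± 5060 (log2 fold change 1.01), and Ccl7 from 27.6 ± 3.42 to 229 ± 118 (log2 fold change 2.90), while Cxcl12 fell from 410.1 ± 25.0 to 48.3 ± 2.61 (log2 fold change -3.06) and Cxcl16 from 222 ± 51.2 to 31.9 ± 5.48 (log2 fold change -2.75).

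Other surface and signalling families leaned down or split. Of 15 ephrin and Eph receptor genes 8 fell and 3 rose (median -0.52), and of 14 Wnt ligand and Frizzled genes 7 fell and 1 rose (median -0.42). Over all genes 20.8% fell and 20.0% rose. Among cadherins Cdh1 was joined by lower Cdh13 (-2.10), while Cdh16 of kidney epithelium rose from 8362 ± 489 to 17352 ± 1200 (log2 fold change 1.05) and Cdh17 of intestine from 355 ± 45.8 to 1581 ± 400 (log2 fold change 2.13). The tight junction gene Cldn2 rose from 376 ± 13.4 to 1957 ± 158 (log2 fold change 2.37). Aldehyde dehydrogenase genes split, with 7 of 15 rising and 6 falling, Aldh4a1 of proline breakdown from 444 ± 14.7 to 1468 ± 69.0 (log2 fold change 1.72) against Aldh1a1 of retinoid synthesis from 28061 ± 1280 to 13747 ± 1060 (log2 fold change -1.03).

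Some large differences did not pass the test with all libraries, and the libraries of a group lay far apart for them. Gvin1 was at 0 in all WT libraries and at 2473, 204 and 0 in DKO1 (adjusted p = 0.062, and 0.00014 without DKO1 replicate 4). Amd1, of polyamine synthesis, ran from 262 to 4356 in WT and from 0 to 242 in DKO1 (adjusted p = 0.076, and 0.029 without DKO1 replicate 4). Gm10052 was at 7020.5 and 7289 in DKO1 replicates 1 and 3 and at 0 in replicate 4 (adjusted p = 0.21, and 0.0585 without it).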
